A study of Mus musculus with 6 samples.

Results

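The xenobiotic metabolism enzyme families are the gene families of cytochromes P450, UDP-glucuronosyltransferases, glutathione S-transferases and sulfotransferases that oxidise or conjugate foreign compounds. Members were chosen by symbol, as genes of the Cyp1 to Cyp4, Ugt1 and Ugt2, Gst alpha, mu, pi, theta, kappa and omega, and Sult families whose mean over the 6 libraries reached 10 counts. Of the 24517 genes in the count tables, 103 had a matching symbol and 67 reached the minimum. All 67 also passed the filter on low counts that preceded testing. The members nearest above the minimum were Sult5a1, with a mean of 12 counts, and Gsta2, with 13.5. Nearest below it were Cyp4f39, with 7 counts, and Ugt2b1, with 6.17. The 36 matching genes below the minimum included both Cyp1 genes found, Cyp1a1 with a mean of 5 counts and Cyp1b1 with 5.67, so that no Cyp1 gene is described further. They also included Cyp3a11, a main drug-oxidising form of mouse liver, with 9, 7 and 0 counts in NSD2fl/fl libraries 1 to 3 and 0, 7 and 7 counts in NSD2∆IE libraries 1 to 3.

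The data were RNA sequencing counts from mouse colon, taken as whole tissue, in 2 groups of 3 libraries. In NSD2∆IE mice the floxed Nsd2 gene, which encodes a methyltransferase of histone H3 lysine 36, is deleted by a Cre driven by the villin promoter, which is active in intestinal epithelium. NSD2fl/fl controls carry the floxed alleles without the deletion, and both groups share the C57BL/6J background and 16 weeks, by the labels, of a high-fat cholesterol diet (HFCD). Per the study's methods the animals were male littermates, young adults at the start of the diet, and the labels name no further agent. In bulk tissue, fewer cells of a type and less RNA per cell cannot be told apart.

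These enzymes work in sequence. In phase I, cytochromes P450 insert oxygen into lipophilic compounds, with electrons passed on by the reductase POR. In phase II, UDP-glucuronosyltransferases, glutathione S-transferases and sulfotransferases attach glucuronic acid, glutathione or sulfate, and transporters then export the products. Many of the genes are induced through the receptors AHR, PXR and CAR or through the oxidant-responsive factor NRF2, and intestinal epithelium is, after the liver, a classical site of their expression. Several members act mainly on the body's own lipids, such as the CYP4 enzymes that hydroxylate fatty acids and leukotrienes.

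Library totals lay between 38041832 and 38604680 counts, and 16347 genes were tested. Nsd2, the targeted gene, had counts of 1840, 2091 and 2455 in NSD2fl/fl and of 972, 914 and 1139 in NSD2∆IE. Sex-linked genes separated the groups. Xist had at most 4 counts in NSD2fl/fl and at least 21217 in NSD2∆IE, whereas 4 Y-linked genes together had at least 5058 counts in NSD2fl/fl and at most 1 in NSD2∆IE. Genotype and this difference cannot be told apart in any comparison that follows, although the methods describe male mice. A further division ran across the genotypes. Hoxb13, a homeobox gene known for its expression in distal colon, had 14052 and 12125 counts in NSD2fl/fl libraries 1 and 3 and 12288 in NSD2∆IE library 1, the Hoxb13-high libraries. It had 25 counts in NSD2fl/fl library 2 and 197 and 1086 in NSD2∆IE libraries 2 and 3, the Hoxb13-low libraries. The labels do not give the stretch of colon that was sampled. Each genotype thus held both kinds of library, but in the ratio of 2 to 1 in NSD2fl/fl and 1 to 2 in NSD2∆IE. Summed smooth muscle markers were 1420 to 4050 CPM (counts relative to the library size, scaled by TMM factors) in NSD2fl/fl and 5030 to 10800 CPM in NSD2∆IE, and 7 of the 8 were higher in NSD2∆IE at an unadjusted p under 0.05 in edgeR. The 9 epithelial markers were all present and summed to 10500 to 18700 CPM and 10500 to 11800 CPM.

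None of the 67 differed between NSD2fl/fl and NSD2∆IE at an adjusted p under 0.05 in edgeR, a threshold that Nsd2 itself did not pass there. Within the 6 libraries, 15 of the 67 (22.4%) had a highest and a lowest library at least 3 log2 units apart, against 4.39% of all genes tested. In 14 of these 15 the Hoxb13-low and Hoxb13-high libraries did not overlap. How often this held among all genes of that range was not counted, so it is not shown to be particular to the members. The median distance between highest and lowest library was 1.56 log2 units for the members and 0.73 for all genes. Together the members took 0.405%, 0.616% and 0.306% of the counts in NSD2fl/fl libraries 1 to 3 and 0.403%, 0.749% and 0.462% in NSD2∆IE libraries 1 to 3. Cyp2c55 alone supplied 17.6% to 34.1% of the member counts in the Hoxb13-low libraries and at most 4.49% in the Hoxb13-high libraries.

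On the FPKM scale, which divides by gene length and so allows genes to be compared, the order of mean levels was led by Cyp2c55 (404 FPKM), Gsto1 (317), Gstp1 (169), Ugt2b34 (155), Gstm1 (144), Cyp2d34 (122) and Cyp2c65 (98.7). The order of the leading genes was not stable from library to library, because Cyp2c55 ranged from 18.5 to 1230 FPKM. Cyp2 was the largest family, with 21 members, and its summed level ranged from 640 to 3470 CPM. The 4 Ugt2 members summed to 445 to 674 CPM, and the 7 Gst mu members to 256 to 434 CPM.

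Between the Hoxb13-low and the Hoxb13-high libraries, 33 of the 67 members (49.3%) did not overlap, against 22.4% of all genes tested. Of these, 19 (28.4%) were higher in all 3 Hoxb13-low libraries, where 9.55% of all genes were, and 14 (20.9%) were lower, against 12.8% of all genes. The libraries were divided by a measured gene and not by a label, so these counts are a description and carry no test. The members higher in the Hoxb13-low libraries were Cyp2c55, Cyp2c65, Cyp2c66, Cyp2d26, Cyp2j6, Cyp3a25, Cyp3a44, Cyp4b1, Cyp4f40, Ugt1a1, Ugt1a6a, Ugt2b5, Ugt2b36, Gsta1, Gsta2, Gsta4, Gstk1, Gstp1 and Sult1d1. The members lower there were Cyp2c68, Cyp2c69, Cyp2d10, Cyp2d12, Cyp2f2, Cyp2u1, Cyp4f18, Gstm2, Gstm4, Gstm6, Gstm7, Gstp3, Gstt2 and Gstt3. Cell type markers held both patterns too. Of 8 colonocyte markers, Car1, Slc9a3 and Guca2a were higher and Slc26a3 and Aqp8 lower in all 3 Hoxb13-low libraries. Their sum, 6310 to 11500 CPM in the Hoxb13-low and 2910 to 4710 CPM in the Hoxb13-high libraries, was carried by Car1. Of 7 goblet cell markers, Muc2 and Spdef were higher and Fcgbp, Clca1 and Tff3 lower in the Hoxb13-low libraries, with sums of 19600 to 28100 CPM there and 30700 to 49300 CPM in the others. The part of either cell type in the result was not tested.

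**Figure D1:**
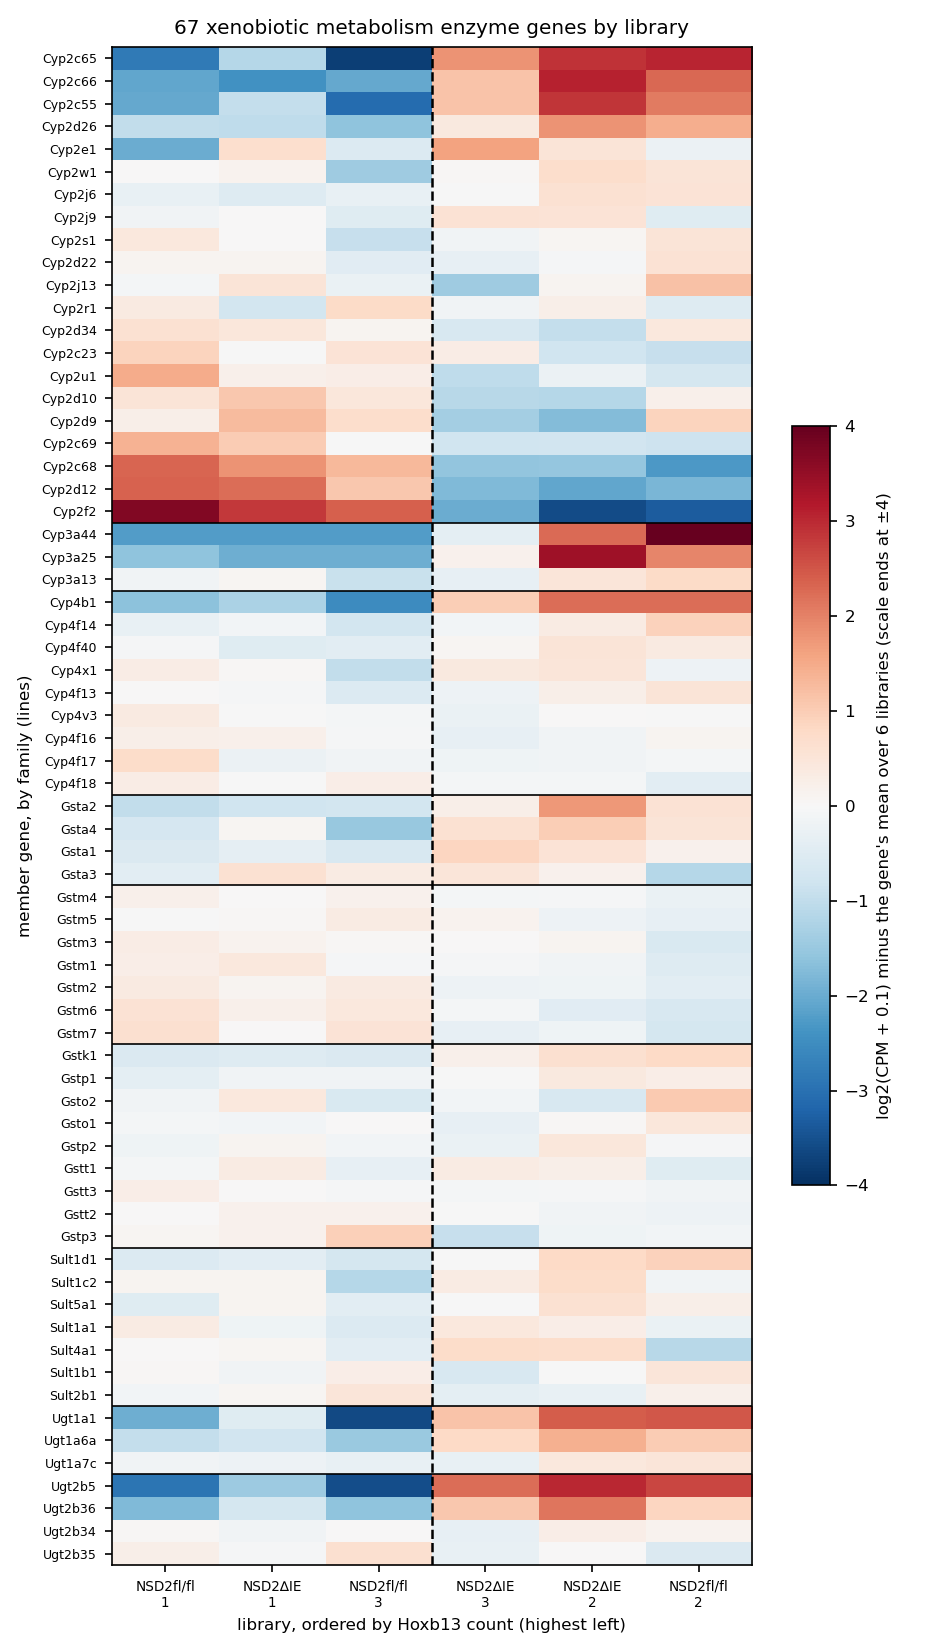
Each row is one of the 67 members, grouped by family, and each column one library, ordered by its Hoxb13 count with the highest at the left; colour gives log2(CPM + 0.1) minus the gene's mean over the 6 libraries, and the dashed line parts the Hoxb13-high from the Hoxb13-low libraries. Cyp2c55, Cyp2c65, Cyp4b1, Ugt1a1 and Ugt2b5 are blue at the left and red at the right, Cyp2c68, Cyp2d12 and Cyp2f2 the reverse, and most Gst and Sult rows are pale.

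The Cyp2c genes on chromosome 19 held both patterns. Cyp2c55, an oxidase of arachidonic and linoleic acid that is characteristic of mouse colon, had 3201, 51543 and 1457 counts in NSD2fl/fl libraries 1 to 3 and 6984, 98565 and 31300 counts in NSD2∆IE libraries 1 to 3. The 3 Hoxb13-low libraries, 1 NSD2fl/fl and 2 NSD2∆IE, were all above the other 3, by 23.2-fold within NSD2fl/fl and 9.09-fold within NSD2∆IE. Cyp2c65, a close relative, had 312, 17149 and 150 counts and then 1048, 17091 and 8451 counts, so the same libraries were high. The third gene of this stretch, Cyp2c66, was far lower, at 1, 89 and 1 counts and 0, 173 and 45 counts, and 10.8% of its 75-base transcript windows also occur in Cyp2c65. Cyp2c68 ran the other way, with 6254, 231 and 2866 counts in NSD2fl/fl and 4482, 434 and 449 counts in NSD2∆IE. It was 18.9-fold higher in the Hoxb13-high libraries within NSD2fl/fl and 10.4-fold higher within NSD2∆IE. Its neighbour Cyp2c69 had 412, 79 and 140 counts and 326, 91 and 95 counts. In the GENCODE M21 annotation of GRCm38, the build of the counts, Cyp2c55 (chr19:39007019-39042693), Cyp2c65 (chr19:39061015-39093944) and Cyp2c66 (chr19:39113898-39187072) follow each other on the plus strand. Cyp2c68 (chr19:39688834-39741054) and Cyp2c69 (chr19:39842814-39886799) lie farther along on the minus strand. Reads of Cyp2c68 and Cyp2c69 are uncertain, since 28.5% and 42.6% of their transcript windows also occur in another gene, chiefly Cyp2c40, which itself had at most 9 counts in a library.

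The promoters of 5 members that separated the libraries are shown because genes of one cluster, and of 3 families, moved together or in opposition. Each line gives the 250 bases before the RefSeq start on GRCm38.p6, read along the gene's strand, with capitals at the matches to any of 6 motifs searched on both strands. The motifs were the TATA box (TATAAA), the AHR response element core (GCGTG), the antioxidant response element core (TGACNNNGC), an HNF1 half-site (GTTAAT), an HNF4 core (CAAAGTC) and a CDX core (TTTATG). Matches to different motifs were allowed to overlap, and none of those printed did.
Cyp2c55: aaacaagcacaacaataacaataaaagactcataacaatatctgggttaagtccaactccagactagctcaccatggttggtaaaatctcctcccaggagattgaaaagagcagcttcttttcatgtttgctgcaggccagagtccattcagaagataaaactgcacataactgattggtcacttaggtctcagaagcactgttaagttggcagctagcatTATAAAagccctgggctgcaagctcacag
Cyp2c65: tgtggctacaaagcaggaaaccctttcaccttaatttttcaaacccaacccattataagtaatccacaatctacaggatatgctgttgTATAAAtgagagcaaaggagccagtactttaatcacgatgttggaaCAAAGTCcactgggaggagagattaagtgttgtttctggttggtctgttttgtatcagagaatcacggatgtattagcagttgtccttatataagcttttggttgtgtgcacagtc
Ugt1a1: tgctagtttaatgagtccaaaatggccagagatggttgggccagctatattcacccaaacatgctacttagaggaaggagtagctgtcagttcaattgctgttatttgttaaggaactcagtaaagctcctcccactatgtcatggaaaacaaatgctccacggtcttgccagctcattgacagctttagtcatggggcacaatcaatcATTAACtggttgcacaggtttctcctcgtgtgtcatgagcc
Ugt2b5: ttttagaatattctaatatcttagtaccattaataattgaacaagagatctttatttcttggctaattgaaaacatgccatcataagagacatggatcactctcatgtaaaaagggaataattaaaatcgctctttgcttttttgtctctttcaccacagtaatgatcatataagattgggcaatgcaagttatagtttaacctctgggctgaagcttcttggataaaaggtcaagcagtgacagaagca
Cyp2c68: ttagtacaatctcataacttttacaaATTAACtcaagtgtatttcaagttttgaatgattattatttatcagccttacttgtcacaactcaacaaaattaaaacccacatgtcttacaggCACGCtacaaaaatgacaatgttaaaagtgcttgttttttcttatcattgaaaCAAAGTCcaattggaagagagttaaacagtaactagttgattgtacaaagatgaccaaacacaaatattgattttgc

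The Cyp2c55 line, at chr19:39006769-39007018 on the plus strand, held a TATA box that begins 29 bases before the start. In Cyp2c65, at chr19:39060756-39061005 on the plus strand, the letters TATAAA began 162 bases and an HNF4 core 116 bases before the start. The Ugt1a1 stretch, at chr1:88211709-88211958 on the plus strand, lies inside the annotated spans of Ugt1a6a and Ugt1a7c and held an HNF1 half-site 41 bases before the start. No match was found in Ugt2b5, at chr5:87140341-87140590 on the minus strand. Cyp2c68, at chr19:39741102-39741351 on the minus strand, held an HNF1 half-site 224 bases, an AHR core 130 bases and an HNF4 core 77 bases before the start. All 32851 RefSeq promoter windows, members included, were likewise searched only in the 250 bases before the start. The TATA box occurred in 12.4% of them, the AHR core in 28.2% and the antioxidant core in 10.2%. The HNF1 half-site occurred in 6.43%, the HNF4 core in 3.84% and the CDX core in 10.8%. In the 72 windows of the 57 members that matched the table, the shares were 15.3%, 23.6%, 6.94%, 13.9%, 8.33% and 5.56% in the same order. Such matches describe the letters and do not show that a factor binds. The HNF4 core stood in both Cyp2c65 and Cyp2c68, which moved in opposite directions between the libraries.

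The Cyp2d genes, relatives of the human drug oxidase CYP2D6, also held opposite patterns on one stretch of chromosome 15. Cyp2d34, the most abundant of them at 122 FPKM, had 12764, 10414 and 8461 counts in NSD2fl/fl and 11963, 4479 and 5751 counts in NSD2∆IE. Its NSD2fl/fl libraries were thus all high, and of the NSD2∆IE libraries only library 1 was. Cyp2d26 was higher and Cyp2d12 lower in the Hoxb13-low libraries. Cyp2d26 had 841, 4245 and 505 counts and 852, 5980 and 2359 counts, whereas Cyp2d12 had 3102, 153 and 1172 counts and 2951, 143 and 189 counts. Cyp2f2, known for activating naphthalene in airway cells, separated the libraries more than any other member with a mean of at least 100 counts. It had 1191, 5 and 442 counts in NSD2fl/fl and 668, 4 and 21 counts in NSD2∆IE, a distance of 7.66 log2 units between the highest and the lowest library.

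The Cyp3 family, whose enzymes oxidise many drugs and steroids, had 3 members. Cyp3a13, the form long known from mouse intestine, had 7189, 12420 and 3931 counts in NSD2fl/fl and 8608, 11348 and 6789 counts in NSD2∆IE, and the genotypes overlapped. Cyp3a44 had 0, 479 and 0 counts and then 0, 87 and 11 counts, so that reads were found in the Hoxb13-low libraries alone. Cyp3a25 had 1, 49 and 0 counts and 0, 155 and 14 counts and followed the same libraries. Both are known mainly from liver, where albumin (Alb) and transthyretin (Ttr) mark hepatocytes. Alb had 14 to 103 counts in all libraries and did not divide them by Hoxb13. Ttr had 1397 to 1849 counts in the Hoxb13-high and 62 to 277 in the Hoxb13-low libraries, opposite to Cyp3a25 and Cyp3a44. Of the other 7 hepatocyte markers, Fga, Fgb, Fgg and Serpina1a had at most 7 counts in any library, Ahsg at most 10 and Apoh at most 25, and Serpina1b had 39 to 58 counts in NSD2fl/fl and 9 to 22 in NSD2∆IE. Serpina1b and Alb were lower in NSD2∆IE at an unadjusted edgeR p (0.00468 and 0.0309).

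Among the 9 Cyp4 members, the most abundant was Cyp4f14, a leukotriene B4 hydroxylase, with 6954, 14924 and 4723 counts in NSD2fl/fl and 8206, 11186 and 8476 counts in NSD2∆IE. Cyp4f16 of the same subfamily was steadier, at 2748, 2314 and 2068 counts and 2732, 2156 and 1983 counts. Neither separated the genotypes. Cyp4b1, an oxidase of fatty acids and of plant toxins, was the Cyp4 member that varied most, with 207, 2807 and 103 counts and 274, 3141 and 1383 counts. It was 19.0-fold higher in the Hoxb13-low library of NSD2fl/fl and 8.07-fold higher in those of NSD2∆IE.

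Glucuronidation genes divided in the same way within each subfamily. Ugt1a1, the bilirubin-conjugating enzyme, had 179, 3652 and 50 counts in NSD2fl/fl and 521, 3884 and 1686 counts in NSD2∆IE, and was high in the 3 Hoxb13-low libraries. Ugt1a7c had 3272, 4638 and 2705 counts and 3220, 4939 and 3105 counts, with overlap of all kinds. Ugt1a genes have a first exon each and share the others, so 51.2% to 57.7% of the transcript windows of the 3 Ugt1a members occur in another gene. Their counts are uncertain, as the counting mode is not given in the sources used here. In the Ugt2 family, whose enzymes conjugate steroids and bile acids among other compounds, Ugt2b34 was the steady member, at 18654, 18390 and 17003 counts and 17000, 22382 and 15572 counts. Ugt2b5 was the variable one, at 42, 2068 and 24 counts and 128, 2891 and 1775 counts, which was 65.6-fold higher in the Hoxb13-low library within NSD2fl/fl and 17.8-fold higher within NSD2∆IE. Of its transcript windows 30.4% occur in another gene, chiefly Ugt2b38, which had at most 3 counts in a library.

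**Figure D2:**
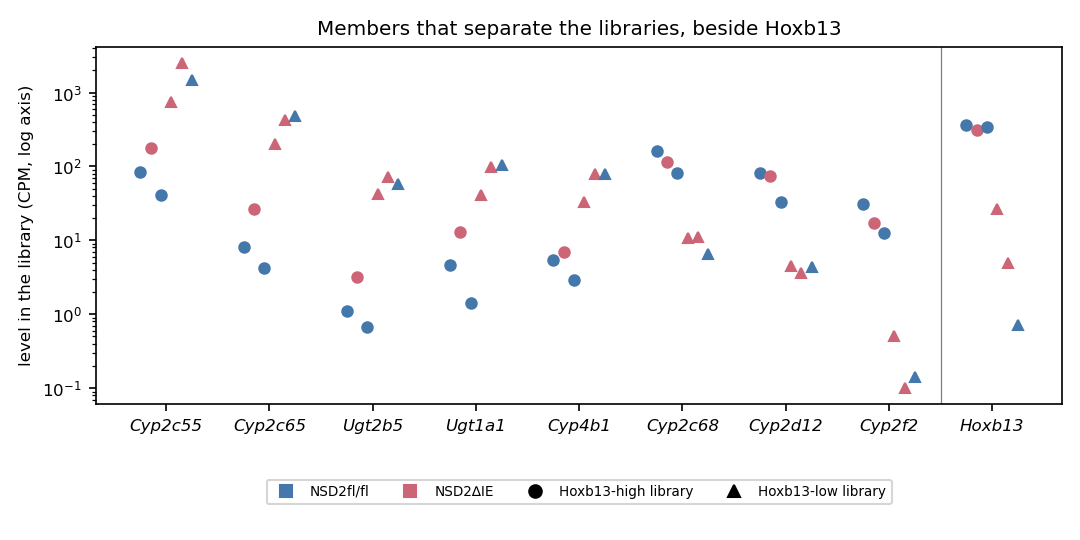
Levels in CPM (log axis) of 8 members and of Hoxb13, 1 point per library; blue marks NSD2fl/fl, red NSD2∆IE, circles the Hoxb13-high and triangles the Hoxb13-low libraries. For each of the 8 members all triangles lie on one side of all circles, above them for Cyp2c55, Cyp2c65, Ugt2b5, Ugt1a1 and Cyp4b1 and below them for Cyp2c68, Cyp2d12 and Cyp2f2, with both colours among the triangles.

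Glutathione S-transferases of the mu class and of the pi, theta, kappa and omega classes spread less than the members as a whole, with median log2 ranges of 0.89 and 0.77 against 1.56, and the alpha class more, with 2.15. Gsto1, a thioltransferase, had 13507, 17856 and 13442 counts in NSD2fl/fl and 13535, 15155 and 12373 counts in NSD2∆IE. Gstp1, a general conjugator of electrophiles, had 3630, 5292 and 4011 counts and 4438, 6389 and 5108 counts, and 29.2% of its windows occur in Gstp2. The 3 Hoxb13-low libraries were the highest for Gstp1, by 1.45-fold within NSD2fl/fl and 1.27-fold within NSD2∆IE. Gstm1 had 8967, 4794 and 6643 counts and 10258, 6987 and 7772 counts, and Gstm2 had 3458, 1825 and 3154 counts and 2955, 2435 and 2490 counts. Of the 7 Gst mu members, which lie together on chromosome 3, none was higher and 4 were lower in all 3 Hoxb13-low libraries. The 4 Gst alpha members went the other way in 3 cases. Gsta4, which conjugates the lipid peroxidation product hydroxynonenal, had 593, 1253 and 304 counts and 1041, 1959 and 1555 counts. Gsta3, known for conjugating aflatoxin epoxide, had 508, 282 and 789 counts and 1092, 787 and 1029 counts, with its lowest value in NSD2fl/fl library 2.

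Of the 7 Sult members, Sult1d1, a sulfotransferase of catecholamines, had 4517, 11406 and 3715 counts in NSD2fl/fl and 4980, 11687 and 7000 counts in NSD2∆IE. It was the only Sult member for which the Hoxb13-low and Hoxb13-high libraries did not overlap. Sult1a1, the main sulfotransferase of simple phenols, had 13477, 8147 and 6792 counts and 9723, 13236 and 15336 counts, and its libraries overlapped by genotype and by Hoxb13.

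The question of the design was which transcripts differ in colon without epithelial NSD2 under HFCD. In the xenobiotic enzyme families, no member passed an adjusted p of 0.05 in edgeR's quasi-likelihood test, where 5 of all 16347 genes (0.0306%) did, namely Xist and the 4 Y-linked genes. Nsd2 itself, the deleted gene, did not pass either (log2 fold change -1.23, edgeR p 0.000133, adjusted p 0.302). Its DESeq2 adjusted p was 3.88e-07. The absence of edgeR calls therefore does not show an absence of change. At an unadjusted p under 0.05 there were 5 of 67 members (7.46%), a share below the 11.1% of all genes. With DESeq2, 7 members (10.4%) had an unadjusted p under 0.05, against 12.6% of all genes, and 2 members (2.99%) had an adjusted p under 0.05, close to the 2.79% of all genes. These were Gstt1, with an adjusted p of 0.0159, and Cyp2e1, with 0.0398. Adding the study's minimum fold change (0.322 on the log2 scale) to a p under 0.05, 4 members were higher in NSD2∆IE (5.97%, against 8.05% of all genes) and 1 was lower (1.49%, against 2.21%). Median log2 fold changes of NSD2∆IE over NSD2fl/fl were -0.03 for the members and -0.04 for all genes, with 33 members (49.3%) above 0, against 43.7% of all genes, and 34 below.

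Gstt1, a transferase for small halogenated compounds, had the smallest p. It had 995, 698 and 786 counts in NSD2fl/fl and 1363, 1280 and 1448 counts in NSD2∆IE, so every NSD2∆IE library was above every NSD2fl/fl library. The mean was 22.5 ± 3.09 CPM in NSD2fl/fl and 33.9 ± 1.38 CPM in NSD2∆IE (SD, n = 3), a log2 fold change of 0.59 (SE 0.131, edgeR p 0.00311, adjusted p 0.302). In all 14 alternatives the unadjusted p stayed under 0.05, with log2 fold changes between 0.50 and 0.72. Comparing libraries of like Hoxb13 level, the log2 ratio of means was 0.52 in the Hoxb13-high and 0.77 in the Hoxb13-low libraries. None of its 75-base windows occurs in another gene.

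Cyp2e1, which oxidises ethanol and other small molecules, showed the largest difference of the 5 at a low level. NSD2fl/fl libraries had 14, 51 and 41 counts, all below the 111, 99 and 226 counts of NSD2∆IE. The level was 0.985 ± 0.558 CPM against 3.58 ± 1.62 CPM (SD, n = 3), with a log2 fold change of 1.86 (SE 0.562, edgeR p 0.0135, adjusted p 0.326). Without NSD2∆IE library 3 the edgeR p was 0.0538, and it was under 0.05 in 13 of 14 alternatives. Fat cells are a known site of Cyp2e1 expression, and adipocyte markers were also higher in NSD2∆IE. Summed over 7 markers, they were 12 to 22.7 CPM in NSD2fl/fl and 28.7 to 83.7 CPM in NSD2∆IE, and of the 6 tested all were higher, 3 at an unadjusted p under 0.05. Adiponectin (Adipoq) had 14, 0 and 78 counts and 102, 150 and 427 counts, with the highest value in the library where Cyp2e1 was highest. Within NSD2fl/fl libraries 1 to 3 the marker sums were 12, 22.7 and 15.8 CPM, in the same order as Cyp2e1. The sum of library 2 was mostly Cidec, at 18.6 CPM. Adipoq had 0 counts in that library, where Cyp2e1 was highest of that genotype. The part of these markers in the result was not tested.

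Sult4a1, a brain-enriched member without a well-defined substrate, had 245, 101 and 164 counts in NSD2fl/fl and 264, 406 and 432 counts in NSD2∆IE. Its log2 fold change was 0.98 (SE 0.334, edgeR p 0.0225, adjusted p 0.367). Within the Hoxb13-high libraries the log2 ratio was 0.28, and within the Hoxb13-low libraries it was 1.86. Cyp2j9, of an arachidonic acid-oxidising subfamily, had 138, 99 and 98 counts and 156, 227 and 244 counts, a log2 fold change of 0.77 (SE 0.246, edgeR p 0.0176, adjusted p 0.35). Its log2 ratios were 0.31 and 1.05 in the same order. Markers of enteric neurons and glia, 10 genes all detected in every library, summed to 53.5 to 99.3 CPM in NSD2fl/fl and 131 to 161 CPM in NSD2∆IE, and all 10 were higher at an unadjusted p under 0.05. Their part in the levels of Sult4a1 and Cyp2j9 was not tested. Each of these members had a p under 0.05 in 11 of 14 alternatives. Without NSD2fl/fl library 3, NSD2∆IE library 2 and NSD2∆IE library 3 in turn, the edgeR p was 0.059, 0.0668 and 0.0712 for Sult4a1 and 0.054, 0.0635 and 0.0701 for Cyp2j9.

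Sult1b1, which sulfates phenols and thyroid hormones, was the only member of the 5 that was lower in NSD2∆IE. It had 6596, 8176 and 7014 counts in NSD2fl/fl and 5866, 6366 and 4342 counts in NSD2∆IE. The mean was 200 ± 30.0 CPM in NSD2fl/fl and 138 ± 29.4 CPM in NSD2∆IE (SD, n = 3), a log2 fold change of -0.54 (SE 0.197, edgeR p 0.0306, adjusted p 0.401). The log2 ratio was -0.32 in the Hoxb13-high and -0.80 in the Hoxb13-low libraries, so both kinds of library gave the same sign. Its p was under 0.05 in 11 of 14 alternatives, and the edgeR p was 0.0828 without NSD2fl/fl library 2, 0.0618 without NSD2fl/fl library 3 and 0.0847 without NSD2∆IE library 3. The 9 epithelial markers were also lower in NSD2∆IE, by a median log2 fold change of -0.32, with none at an unadjusted p under 0.05.

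**Figure D3:**
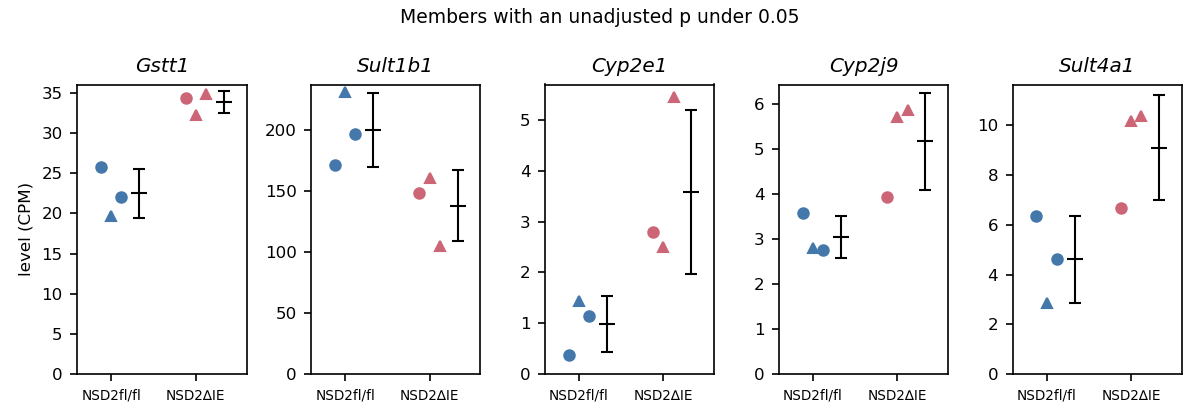
CPM of the 5 members with an unadjusted p under 0.05, by genotype; points are libraries (circles Hoxb13-high, triangles Hoxb13-low), and the bars beside them give the mean and SD of 3 libraries. Gstt1, Cyp2e1, Cyp2j9 and Sult4a1 are higher and Sult1b1 is lower in NSD2∆IE, without overlap of the genotypes in any of the 5.

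These 5 were the only members whose genotypes did not overlap, 4 higher (5.97%, against 11.4% of all genes) and 1 lower (1.49%, against 7.28%). For the members that separated the libraries by Hoxb13, the fitted genotype differences had wide errors. Cyp2c55 had a log2 fold change of 1.11 with an SE of 1.44, Cyp2c65 of 0.41 with 1.71, Ugt1a1 of 0.47 with 1.44, Ugt2b5 of 0.98 with 1.67 and Cyp4b1 of 0.45 with 1.31. Cyp2f2, lower in the Hoxb13-low libraries, had -1.32 with 1.86. Their edgeR adjusted p-values lay between 0.80 and 0.941. Within the Hoxb13-high libraries the single NSD2∆IE library exceeded the mean of the NSD2fl/fl libraries for Cyp2c55, Cyp2c65, Ugt1a1, Ugt2b5 and Cyp4b1, by 0.74 to 2.12 on the log2 scale. Within the Hoxb13-low libraries the same ratios lay between -0.61 and 0.15.

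A fit with the log2 CPM of Hoxb13 as a covariate in edgeR gave other counts. With the same p and fold limits, 17 members (25.4%) were higher in NSD2∆IE, against 12.1% of all genes, and 1 (1.49%) was lower, against 4.18%. None had an adjusted p under 0.05 in that fit, where 6 of all genes (0.0367%) did. Among the 17 were Cyp2c55 (log2 fold change 1.75, edgeR p 0.000849), Cyp2c65 (2.06, p 0.000141), Ugt2b5 (2.46, p 0.000281), Ugt1a1 (1.68, p 0.0024), Gsta4 (1.02, p 0.00199) and Gsta3 (0.86, p 0.00485). The fit takes Hoxb13 as a straight-line term. Among the Hoxb13-low libraries Hoxb13 was 0.706 CPM in NSD2fl/fl and 4.97 and 26.2 CPM in NSD2∆IE. Within those libraries alone the log2 ratios of these genes were 0.15, -0.61, -0.01, -0.57, 0.3 and 1.49 in the same order. Without NSD2fl/fl library 2, the only Hoxb13-low library of its genotype, and with no covariate, 17 members were higher, against 9.48% of all genes. Of these, 15 were in both sets. NSD2fl/fl then held Hoxb13-high libraries alone and NSD2∆IE both kinds, so members higher where Hoxb13 was low come out higher through that division. The overlap of the sets is therefore no separate support for the covariate fit. The count of higher members was 2 without NSD2∆IE library 2 (all genes 4.85%) and 1 without NSD2∆IE library 3 (all genes 4.09%). The count of lower members was 2 without NSD2fl/fl library 1 (all genes 4.44%), 5 without NSD2fl/fl library 2 (3.44%), 7 without NSD2∆IE library 1 (3.68%) and 0 without NSD2∆IE library 3 (0.856%).

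By family, the 4 Gst alpha members were all above 0, with log2 fold changes between 0.74 and 1.26 and a median of 0.84, and none had an edgeR p under 0.05 (lowest p 0.079). Of these, Gsta1 and Gsta2 are uncertain because 84.7% and 36.6% of their windows occur in another gene, and Gsta2, with a mean of 13.5 counts, gave the highest of the 4 values. The 7 Gst mu members lay between -0.43 and 0.17. Of the 21 Cyp2 members, 8 were above 0 and 13 below, with a median of -0.39. The Sult family ranged from -0.54 to 0.98, with 5 members above 0, and the 4 Ugt2 members from -0.28 to 1.65.

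**Figure D4:**
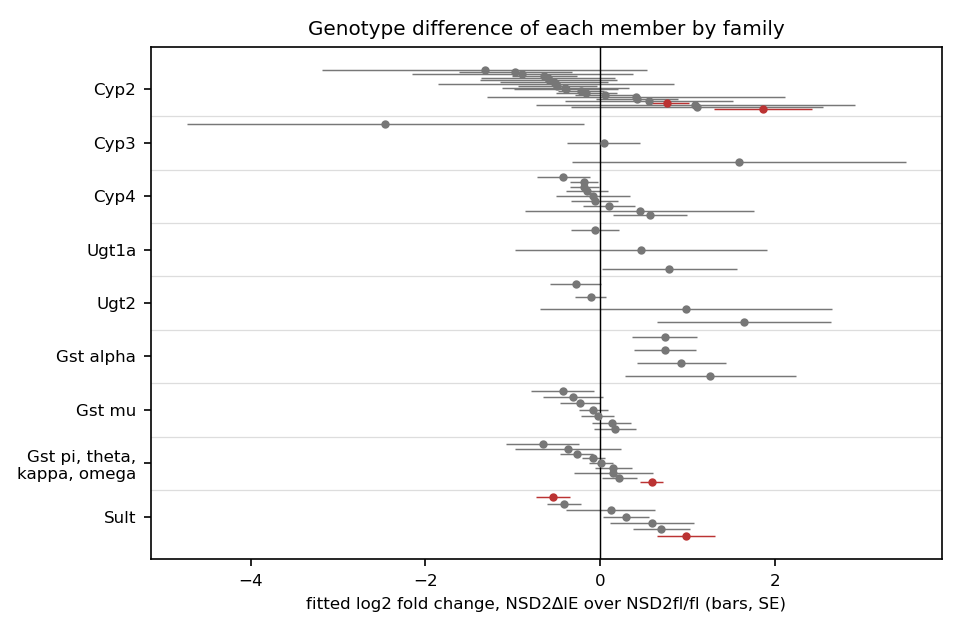
Fitted log2 fold change of NSD2∆IE over NSD2fl/fl for each of the 67 members by family, with bars of 1 SE on either side; red marks an unadjusted p under 0.05. Points lie on both sides of 0 in 8 of the 9 families, the 4 Gst alpha points are all above 0, and the longest bars belong to members that differ by Hoxb13 level.

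The rest of the pathway was followed in 4 lists of genes outside these families. None of the 70 genes tested passed an adjusted p of 0.05 in edgeR. At an unadjusted edgeR p under 0.05, 6 of the 70 were higher and 0 lower, where 8.15% and 2.96% of all genes were. DESeq2 gave 3 of the 70 with an adjusted p under 0.05, where 2.79% of all genes had one. Of 16 receptors, partners and redox carriers, none had an edgeR p under 0.05, and log2 fold changes lay between -0.37 and 0.34. Ahr, the receptor for dioxin-like compounds, had a log2 fold change of -0.17, Nr1i2 (PXR) of -0.32, Nfe2l2 (NRF2) of 0.06 and Por of 0.28. Nr1i3 (CAR) followed the libraries rather than the genotypes, with 160, 4 and 46 counts in NSD2fl/fl and 143, 8 and 21 counts in NSD2∆IE, and all 3 Hoxb13-low libraries were below the other 3.

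Of 26 other phase I enzymes, 5 were higher and none lower at an unadjusted p under 0.05, against 8.15% and 2.96% of all genes. Fmo2, a flavin monooxygenase, had 2703, 1974 and 1889 counts in NSD2fl/fl and 4225, 4209 and 3870 counts in NSD2∆IE. All NSD2∆IE libraries were above all NSD2fl/fl libraries, with a log2 fold change of 0.77 (SE 0.138, edgeR p 0.000907, adjusted p 0.302, DESeq2 adjusted p 0.00139). Ephx1, the microsomal epoxide hydrolase, had a log2 fold change of 0.76 (edgeR p 0.00375) and Aldh1a7, an aldehyde dehydrogenase, of 0.80 (p 0.00574). The quinone reductase Nqo1, a classical NRF2 target, had 835, 1074 and 755 counts and 1167, 2040 and 1710 counts, a log2 fold change of 0.74 (edgeR p 0.0186). The carboxylesterase Ces1d had 1102, 2413 and 603 counts and 2657, 5946 and 4164 counts, a log2 fold change of 1.48 (edgeR p 0.0289). For Nqo1 and Ces1d the genotypes overlapped in CPM, and every Hoxb13-low library was above every Hoxb13-high library. Of the 18 conjugation and cofactor genes tested, Inmt, a methyltransferase, was higher at 1.2 (edgeR p 0.0322), with overlap of the genotypes in CPM. The p was under 0.05 in all 14 alternatives for Fmo2, Ephx1 and Aldh1a7, in 11 for Nqo1 and in 10 for Ces1d and Inmt. Leaving out NSD2fl/fl library 1, NSD2fl/fl library 3 and NSD2∆IE library 2 in turn gave an edgeR p of 0.0639, 0.0635 and 0.0671 for Nqo1. For Ces1d the same libraries gave 0.097, 0.0651 and 0.0914, and NSD2∆IE library 3 gave 0.0537. For Inmt, NSD2fl/fl libraries 2 and 3 gave 0.0746 and 0.0923, and NSD2∆IE libraries 1 and 3 gave 0.122 and 0.0603. None of the 10 transporters had a p under 0.05. Between the Hoxb13-low and Hoxb13-high libraries, 10 of the 26 phase I genes were higher and 5 lower where Hoxb13 was low, against 9.55% and 12.8% of all genes. Of the 16 receptors and redox genes 5 were higher and 2 lower, of the 18 conjugation genes 4 were higher and 0 lower, and of the 10 transporters 4 were higher and 1 lower.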

How the data were processed

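RNA was measured in 3 NSD2fl/fl and 3 NSD2∆IE libraries of mouse colon, grouped by the labels. The authors deposited, per library, a read count per gene symbol and an FPKM value, in which counts are divided by gene length and library total. The submitters' processing notes name fastp, HISAT2, HTSeq, R 3.2.0 and mm10. Annotation release, strand use and counting mode are not given in the sources used here. Reads that fit several family members could therefore be lost or split.

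The count model was that of edgeR 4.0.16, run in R 4.3.3 (filterByExpr, TMM factors, glmQLFit and glmQLFTest, two-sided, no covariate), with Benjamini-Hochberg adjustment over all 16347 genes tested. A second, unadjusted threshold followed the study and joined a p under 0.05 to a log2 fold change beyond 0.322. Standard errors were taken from the log2 fold change and the F statistic. CPM values use TMM factors, and log2 ranges a prior count of 2. Totals were similar in all libraries, so the spread between libraries (biological coefficient of variation 0.311) limited precision. Whether replicates were separate animals is not stated in the labels, and p-values measure the spread between these samples. No pair of libraries matched as closely as a repeat deposit would (chi-square per degree of freedom at least 35.46). On simulated data with known changes, DESeq2 made more false calls than edgeR but also recovered more of the true changes. There edgeR missed most of the smaller changes.

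Members and gene lists were chosen with earlier results of these data known. Named with values in every library were members with an unadjusted p under 0.05, the 2 with the highest mean FPKM in each family, and the 6 of mean count at least 100 that varied most between libraries. Of the other pathway lists, genes with an unadjusted p under 0.05 were named. Cyp2c66, Cyp2c68, Cyp2c69, Cyp2d12, Cyp2d26, Cyp3a25, Ahr, Nr1i2, Nfe2l2, Por, Nr1i3 and Ces1g were added after their values were seen. Uncertain genes were defined by the share of their 75-base transcript windows (GENCODE M21) found in another gene, at least 10% in 20 of the 67 members, in place of the protein identity first planned. Not every such gene is marked where it is named. Cyp2c65 (11.4%), Gstm1 (11.7%) and Cyp4f16 (10.1%) also belong to them. Alternatives were RLE factors, library totals, DESeq2 1.42.0, no filter, limma 3.58.1 on log2(FPKM + 1) and log2(FPKM + 0.1), a replicate block, a Hoxb13 covariate, a mean count of at least 100, and leaving out each library.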

Additional observations from a re-analysis of the deposited data

How the results depend on the processing

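The number of members with an adjusted p under 0.05 was 0 in the edgeR and limma alternatives and 2 with DESeq2, and of pathway genes it was 3 with DESeq2 and 1 (Ces1g) with the Hoxb13 covariate. At the second threshold the members higher in NSD2∆IE numbered 7 on log2(FPKM + 1), 7 on log2(FPKM + 0.1) and 17 with the Hoxb13 covariate, against 4. Leaving out each library gave 1 to 17 members higher and 0 to 7 lower, none with an adjusted p under 0.05, and a median log2 fold change of -0.18 to 0.23. Pathway genes higher numbered 6, with 12 under the covariate and 3 to 18 when each library was left out, and those lower 0, with 1 under the covariate and 0 to 2. Under the covariate 12.1% of all genes were higher and 4.18% lower. Same-numbered libraries did not pair (correlations of deviations 0.501, 0.643 and -0.166). With a replicate block, 9 members were higher and 3 lower, and 10 pathway genes were higher. Shares of all genes were not counted for the replicate block or the limma fits. Those counts therefore cannot be read as particular to the members or the pathway. Without single libraries some log2 fold changes, none past a threshold with all 6 libraries, changed sign. Cyp2c55 became -0.18 without NSD2∆IE library 2. Over the left-out libraries these genes reached 4.2 (Cyp2c55), 5.16 (Cyp2c65), 3.27 (Cyp4b1) and 4.06 (Ugt1a1), each without NSD2fl/fl library 2 (edgeR p 0.00507 to 0.0164). Without NSD2fl/fl library 1, NSD2fl/fl library 3 and NSD2∆IE library 2 in turn, Cyp2c65 became -0.15, -0.16 and -0.53, Cyp4b1 -0.05, -0.09 and -0.54, and Ugt1a1 -0.05, -0.09 and -0.44. The cause was not tested. Library totals in place of TMM moved the median of all genes by 0.127 on the log2 scale. Depth was similar throughout, and members near 10 counts carry the most counting error.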
